A study of Mus musculus with 40 samples.

Results

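The IFIT family, the interferon-induced proteins with tetratricopeptide repeats, was followed through 5 genes, Ifit1, Ifit2, Ifit3, Ifit3b and Ifit1bl1, out of the 43346 genes measured in each tumour. They were chosen by family name, through the Ensembl identifiers that carry these symbols, and all 5 were found. Another gene of this name, Ifit1bl2, was not among those chosen, and its values are given apart below. Expression was measured by RNA-seq in 40 spontaneous mammary tumours of 34 MMTV-Wnt1 mice, in which the promoter of the mouse mammary tumour virus drives a Wnt1 transgene, so that every group shares this transgene. Tumours were wild-type for Trp53 and Cdkn1a, p53-null, or p21-null (p21 is the protein of Cdkn1a), as their labels give it. No source used here names the null alleles, the ages of the mice or the background strain. Treated mice received doxorubicin, an anthracycline that blocks topoisomerase II and breaks DNA, by intraperitoneal injection at 4 mg/kg on each of 5 days, and tumours were taken 24 h after the last dose. The 6 groups were wild-type untreated (6 tumours of 6 mice), wild-type treated (6 tumours of 5 mice), p53-null untreated (6 of 4), p53-null treated (6 of 5), p21-null untreated (6 of 5) and p21-null treated (10 of 9). A mouse is named by the letter m and the number in its title, and its tumours were averaged on the log2 scale, so n counts mice. Wild-type libraries were made with a stranded total RNA kit and those of both null genotypes with another kit, so kit and genotype cannot be told apart when wild-type levels are set beside null levels, and no such level was tested.

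Values are TPM (transcript abundance as a share of 1000000 transcripts), which are scaled by transcript length and carry no sequencing depth. Nuclear protein-coding genes held 7.7% to 10.7% of the deposited TPM in wild-type libraries and 79.6% to 86.3% in null libraries, so each tumour was rescaled to a total of 1000000 over these genes. All levels below are on this protein-coding scale, and changes are differences of log2(TPM + 1), which understate the change of low genes. Epcam, Krt8 and Krt14, markers of mammary epithelium, were at 96.18 TPM (Krt14 in m2688) or more in every mouse. Cdkn1a rose with doxorubicin by 2.66 ± 0.35 log2 units (SE) in wild-type and by 2.24 ± 0.32 in p21-null tumours, and changed by 0.37 ± 0.39 in p53-null tumours (limma adjusted p = 4.61e-06, 1.06e-05 and 0.718). In p21-null mice Cdkn1a stood at 33.38 to 78.39 TPM untreated and 224.3 to 328.46 TPM treated, not below the 12.05 to 51.14 and 171.69 to 241.37 TPM of wild-type mice, whose kit differed. These levels go against a lack of Cdkn1a RNA in the tumours labelled p21-null, and the genotype names used throughout are those of the labels. Trp53 RNA was also measured in p53-null tumours, at 47.92 to 88.08 TPM in the 9 mice, so its presence alone did not check the p53-null label. Its difference from p21-null tumours, made with the same kit, was -0.668 ± 0.161 log2 units untreated and -0.674 ± 0.134 treated (limma adjusted p = 0.0233 and 0.000758). The Cdkn1a rise given above passed in the other genotypes and not in p53-null tumours.

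IFIT proteins are among the most strongly induced products of interferon signalling, and they bind RNA and hold back its translation. Type I interferons act through the receptor chains Ifnar1 and Ifnar2 and the kinases Jak1 and Tyk2, and a resulting complex that holds Stat2 and Irf9 binds an interferon-stimulated response element near the start of its targets. Factors of the IRF family that are activated directly by sensors of cytosolic nucleic acid can bind the same element. Ifit1 recognises viral RNA whose cap lacks a methyl group of the host, Ifit2 restricts several RNA viruses in mice, and human IFIT3 binds and stabilises human IFIT1.

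The 5 genes lie within 99.3 kb of chromosome 19 (GRCm38, 34550694 to 34650009) and are all annotated as protein-coding. Ifit2 (ENSMUSG00000045932) spans 34550694 to 34576419, Ifit3 (ENSMUSG00000074896) spans 34583531 to 34588731 and Ifit3b (ENSMUSG00000062488) spans 34607970 to 34613401, all on the plus strand. Ifit1bl1 (ENSMUSG00000079339) lies between Ifit3 and Ifit3b, at 34592891 to 34601956 on the minus strand. Ifit1 (ENSMUSG00000034459) spans 34640871 to 34650009 on the plus strand. Its start site in RefSeq, 34640889, differs from the start of this span and lies 146 bases from that of a sixth gene of the cluster, Ifit1bl2. That gene runs on the opposite strand from 34640743 to 34617049 and is not a member.

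Promoter windows of 300 bases (250 before and 50 after the start site) were taken for all 5 members from RefSeq (GRCm38.p6). They are shown because the interferon-stimulated response element is the sequence through which this family is known to be induced. Capitals mark its core, GAAA and GAAA with 2 bases of any kind between them or, read on the other strand, TTTC and TTTC likewise spaced, and the start site is the base after the first 250.
Ifit1 (chr19:34640639-34640938, plus strand): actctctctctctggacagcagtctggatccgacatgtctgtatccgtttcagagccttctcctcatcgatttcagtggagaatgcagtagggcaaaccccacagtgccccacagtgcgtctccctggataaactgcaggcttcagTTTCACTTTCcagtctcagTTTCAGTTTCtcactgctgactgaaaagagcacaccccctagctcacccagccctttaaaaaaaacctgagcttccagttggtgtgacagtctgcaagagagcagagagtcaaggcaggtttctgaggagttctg
Ifit3 (chr19:34583279-34583578, plus strand): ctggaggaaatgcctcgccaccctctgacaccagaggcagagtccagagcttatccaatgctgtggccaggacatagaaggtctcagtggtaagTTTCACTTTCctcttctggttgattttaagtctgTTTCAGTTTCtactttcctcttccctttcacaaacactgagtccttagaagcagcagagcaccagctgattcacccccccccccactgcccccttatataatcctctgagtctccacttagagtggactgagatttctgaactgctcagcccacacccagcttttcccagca
Ifit3b (chr19:34607707-34608006, plus strand): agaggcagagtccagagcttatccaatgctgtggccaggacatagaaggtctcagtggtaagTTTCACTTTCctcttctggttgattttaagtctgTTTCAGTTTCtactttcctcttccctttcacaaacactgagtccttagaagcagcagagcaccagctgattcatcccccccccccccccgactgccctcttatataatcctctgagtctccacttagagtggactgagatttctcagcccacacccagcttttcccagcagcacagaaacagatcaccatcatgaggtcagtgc
Ifit1bl1 (chr19:34601919-34602218, minus strand): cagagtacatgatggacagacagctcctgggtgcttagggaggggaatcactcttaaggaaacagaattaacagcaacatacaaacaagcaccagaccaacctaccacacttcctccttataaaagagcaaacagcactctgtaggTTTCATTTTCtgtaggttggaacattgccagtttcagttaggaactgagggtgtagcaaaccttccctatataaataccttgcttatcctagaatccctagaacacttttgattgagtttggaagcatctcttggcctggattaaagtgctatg
Ifit2 (chr19:34550444-34550743, plus strand): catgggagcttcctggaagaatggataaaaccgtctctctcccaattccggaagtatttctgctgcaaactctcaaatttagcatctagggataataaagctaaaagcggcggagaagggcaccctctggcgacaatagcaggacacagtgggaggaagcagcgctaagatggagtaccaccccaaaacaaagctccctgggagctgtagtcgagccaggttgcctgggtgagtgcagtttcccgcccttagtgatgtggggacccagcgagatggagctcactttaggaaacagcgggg
The core was present in the windows of 4 of the 5 members. Ifit1 held 2 copies, 104 and 85 bases before its start site. Ifit3 held 2 copies, 156 and 122 bases before, and Ifit3b held the same pair at 188 and 154 bases. Ifit1bl1 held 1 copy in each of its annotated windows, 104 bases before the start site printed here and 23 bases before its other one. Neither annotated window of Ifit2 held these letters (the other lies at chr19:34550838-34551137). Only 300 bases at each of these start sites were read, so the rest of the Ifit2 span, up to 34576419, was not searched. Of all 32817 mouse promoter windows of this length, 1126 (3.43%) held the core. Counted by gene, 1079 of 27025 (3.99%) held it in any of their windows. The 2 copies of Ifit1 also lie within the window of Ifit1bl2, because these start sites face away from each other across the same stretch. A match of letters is a description and not a site shown to be bound.

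Doxorubicin raised all 5 members in each genotype. As folds of TPM + 1, the rise was 2.2-fold (Ifit2) to 4.76-fold (Ifit3) in wild-type tumours and 3.54-fold (Ifit2) to 5.35-fold (Ifit1) in p53-null tumours. In p21-null tumours it was 3.49-fold (Ifit2) to 8.64-fold (Ifit3). The order of the members depends on the added 1, which weighs most on low genes. Ifit1bl1 went from a median of 0.87 to 10.28 TPM in p21-null tumours. Over the alternative settings of the fit its change there reached 3.27 log2 units, and that of Ifit3 at most 3.2. All 5 members passed the test in each genotype (limma, Benjamini-Hochberg adjustment over 14928 genes, adjusted p under 0.05), where 3.73% of all genes tested were called higher in wild-type, 1.17% in p53-null and 5% in p21-null tumours. The median change of the members was 1.96, 2.36 and 2.75 log2 units in these genotypes, beside medians over all genes of 0.037, 0.052 and -0.086. Every treated mouse lay above every untreated mouse of its genotype for 5 of 5 members in both null genotypes and for 4 of 5 in wild-type tumours, against 2.32%, 3.04% and 4.52% of all genes in p53-null, p21-null and wild-type tumours. These are bulk tumours, in which more cells of an expressing type and more RNA per cell cannot be told apart. With the TPM as deposited, where the members stand at 0.05 to 9.63 in wild-type tumours, only Ifit3 passed in that genotype. When p53-null tumours were fitted without the other genotypes, none of the 5 passed (adjusted p from 0.069 to 0.213, with 1 gene called in all), although the changes were the same.

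**Figure D1:**
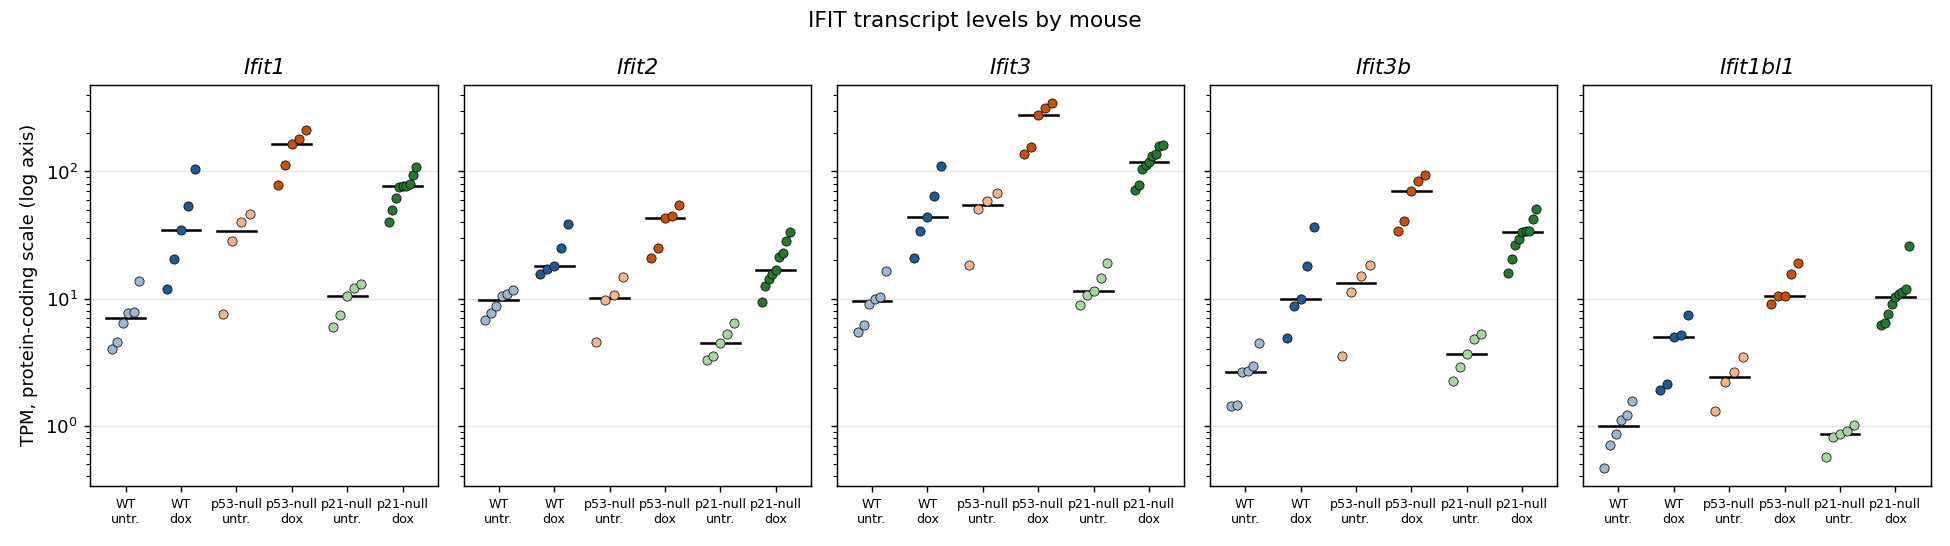
Level of each IFIT gene in each mouse (TPM on the protein-coding scale, log axis), with a bar at the group median, for 6 wild-type untreated, 5 wild-type treated, 4 p53-null untreated, 5 p53-null treated, 5 p21-null untreated and 9 p21-null treated mice. Treated mice lie above untreated mice of the same genotype everywhere but for Ifit1 in wild-type tumours, where the lowest treated mouse (11.91) lies under the highest untreated mouse (13.67).

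Ifit1, the sensor of incompletely capped RNA, stood at 3.99, 7.1 and 13.67 TPM (lowest, median and highest) in the 6 wild-type untreated mice and at 11.91, 20.39, 34.57, 53.3 and 104.46 in the 5 treated mice. These groups overlapped by 1 mouse on each side, m824 among the treated and m1178 among the untreated. The change was 2.18 ± 0.41 log2 units (SE; limma adjusted p = 0.00095), with 5 of 5 treated mice above the untreated mean, and the exact permutation test over mice gave p = 0.00866. p53-null tumours held 7.51, 28.57, 40.08 and 46.46 TPM untreated and 78.36, 111.76, 163.25, 180.03 and 212.5 treated. The untreated mouse m881 was the lowest, and the groups did not overlap. The rise was 2.42 ± 0.46 (adjusted p = 0.00334 by limma). In p21-null tumours the untreated mice held 6.01, 7.4, 10.47, 12.14 and 13.05 TPM and the 9 treated mice 40.16, 76.29 and 108.79 (lowest, median, highest). The lowest treated mouse was thus well clear of the highest untreated mouse, and the rise was 2.78 ± 0.38 (adjusted p = 5.2e-06 by limma).

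Ifit3 was the most abundant member in every treated group. Wild-type untreated mice held 5.5, 9.53 and 16.47 TPM (lowest, median, highest) and the treated mice 20.72, 34.35, 43.51, 64.11 and 110.3. The change was 2.25 ± 0.34 log2 units (limma adjusted p = 5.1e-05), and the groups did not overlap. p53-null tumours held 18.39, 50.99, 58.37 and 68.36 TPM untreated and 137.38, 156.55, 277.96, 317.56 and 344.61 treated, again without overlap. Their rise was 2.36 ± 0.38 (limma adjusted p = 0.000766). p21-null tumours went from 8.85, 10.72, 11.48, 14.46 and 18.91 TPM to 71.28, 118.66 and 160.77 (lowest, median and highest of 9). The groups did not overlap, and the rise of 3.11 ± 0.32 was the largest log2(TPM + 1) change of the 5 members in any genotype (limma adjusted p = 2.89e-08).

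Ifit3b is a near copy of Ifit3. Their coding sequences, of 1212 bases each, differ at 11 bases (99.1% identity), and 51.2% of the 50-base stretches of the Ifit3 transcripts also occur in those of Ifit3b, so how reads were divided between them is uncertain. The ratio of Ifit3 to Ifit3b stayed between 2.76 and 5.2 over the 34 mice, with a median of 3.85. Its group medians were 3.73 to 3.9 in 5 groups and 4.52 in p53-null untreated mice (3.2 to 5.2), and no test was run on this ratio. Ifit3b rose from 1.42, 2.66 and 4.48 TPM (lowest, median, highest) to 4.91, 8.8, 9.97, 18.08 and 36.31 in wild-type tumours, and from 3.53, 11.36, 15.05 and 18.26 to 34.32, 40.73, 69.75, 83.57 and 93.98 in p53-null tumours. It rose from 2.26, 2.88, 3.7, 4.86 and 5.24 TPM to 15.85, 33.69 and 50.92 (lowest, median, highest) in p21-null tumours. None of these pairs of groups overlapped. The changes were 1.96 ± 0.38, 2.41 ± 0.42 and 2.75 ± 0.35 log2 units in wild-type, p53-null and p21-null tumours (limma adjusted p = 0.00105, 0.00167 and 1.24e-06). With both copies summed and fitted as 1 gene, which does not depend on how shared reads were divided, the changes were 2.27 ± 0.36, 2.39 ± 0.4 and 3.1 ± 0.33 (limma adjusted p = 8.42e-05, 0.00101 and 6.18e-08).

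Ifit2 had the smallest change of the 5 members in each genotype. Wild-type untreated mice held 6.77, 9.7 and 11.76 TPM (lowest, median, highest) and treated mice 15.54, 17.09, 18.22, 24.88 and 38.37. The groups lay close without overlap, and the change of 1.14 ± 0.29 log2 units (limma adjusted p = 0.0157) became 0.94 (adjusted p = 0.0729) without m1127, the highest treated mouse. p53-null tumours held 4.54, 9.75, 10.6 and 14.89 TPM untreated and 20.74, 24.83, 42.91, 44.6 and 54.31 treated. They rose by 1.82 ± 0.32 (limma adjusted p = 0.0017). p21-null tumours held 3.29, 3.54, 4.45, 5.31 and 6.44 TPM untreated and 9.5, 16.8 and 33.34 (lowest, median, highest) treated, a rise of 1.8 ± 0.26 (limma adjusted p = 1.38e-05). In both null genotypes the lowest treated mouse stood above the highest untreated mouse.

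Ifit1bl1, the least abundant member, was at or near 1 TPM in untreated wild-type and p21-null tumours. It held 0.47, 0.99 and 1.57 TPM (lowest, median, highest) in wild-type untreated mice and 1.9, 2.13, 5.03, 5.18 and 7.45 in treated mice, a change of 1.33 ± 0.28 log2 units (limma adjusted p = 0.00246). p53-null tumours went from 1.32, 2.22, 2.64 and 3.51 TPM to 9.1, 10.48, 10.53, 15.58 and 19.02, a change of 2.02 ± 0.3 (limma adjusted p = 0.000368). The groups did not overlap in either genotype. p21-null tumours went from 0.57, 0.82, 0.87, 0.91 and 1.01 TPM to 6.23, 10.28 and 26.16 (lowest, median, highest). This rise of 2.61 ± 0.25 (limma adjusted p = 1.17e-08) ranked 17 of all 14928 genes by p-value. The highest of these mice, m4533, stood apart from the next at 11.93 TPM, and without it the change was 2.45 (adjusted p = 3.67e-09).

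The exact two-sided permutation test over mice, run for 15 pairs of member and genotype and not corrected for their number, gave the smallest value each design allows in all but 1 of them. These values were p = 0.00433 for wild-type (5 against 6 mice), p = 0.0159 for p53-null (5 against 4) and p = 0.000999 for p21-null tumours (9 against 5). The exception was Ifit1 in wild-type tumours, given above.

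**Figure D2:**
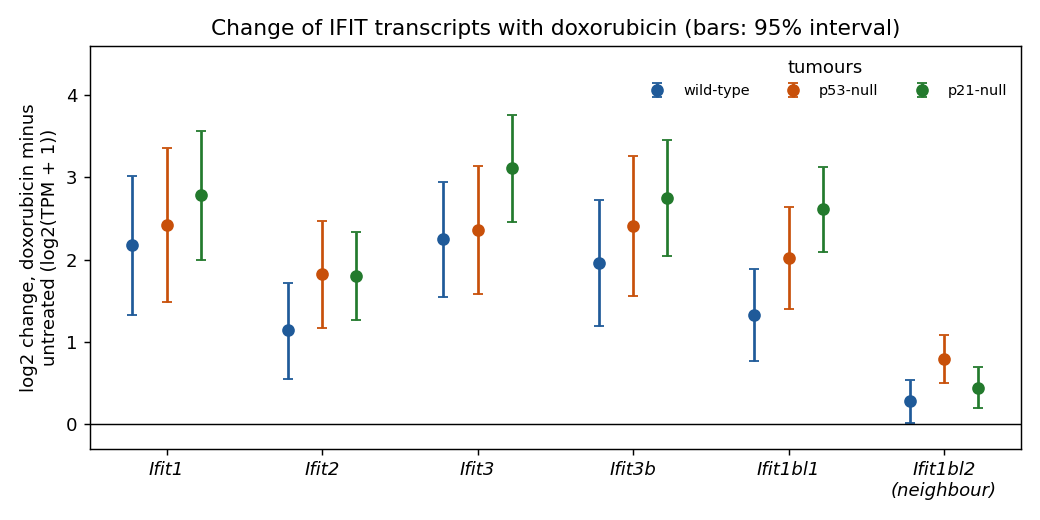
Change of each IFIT gene with doxorubicin in wild-type, p53-null and p21-null tumours (difference of log2(TPM + 1), points, with 95% intervals of the limma fit as bars), with the neighbouring gene Ifit1bl2 at the right. All 15 member intervals lie above 0, from 1.14 for Ifit2 in wild-type to 3.11 for Ifit3 in p21-null tumours, and the intervals of the 3 genotypes overlap for Ifit1, Ifit2, Ifit3 and Ifit3b, whereas those of wild-type and p21-null tumours do not for Ifit1bl1.

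The sixth gene of the cluster, Ifit1bl2, was low throughout. Its untreated medians were 0.48, 0.3 and 0.18 TPM in wild-type, p53-null and p21-null tumours, and its treated medians 0.8, 1.17 and 0.68. It passed the test in p53-null tumours (0.79 ± 0.14 log2 units, limma adjusted p = 0.00207) and p21-null tumours (0.44 ± 0.12, limma adjusted p = 0.0145) but not in wild-type tumours (0.28 ± 0.13, limma adjusted p = 0.237). It shares 7.06% of the 50-base stretches of the Ifit1 transcripts, so how reads were divided between these genes is uncertain too. Of the 9 other tested neighbours on the chromosome, 1, 0 and 3 were called in wild-type, p53-null and p21-null tumours. Fas, a death receptor gene and known p53 target, rose by 1.48 ± 0.22 in wild-type and 1.72 ± 0.21 in p21-null tumours (limma adjusted p = 4.29e-05 and 5.1e-07) and changed by 0.04 ± 0.25 in p53-null tumours (limma adjusted p = 0.962). Ch25h, which makes 25-hydroxycholesterol and is itself interferon-inducible, rose in p21-null tumours (1.04 ± 0.21, limma adjusted p = 0.00113). Its changes in wild-type and p53-null tumours were 0.51 ± 0.23 and 0.66 ± 0.25 (limma adjusted p = 0.213 and 0.21). Pank1, a coenzyme A synthesis gene, fell by 0.72 in p21-null tumours (SE 0.15, limma adjusted p = 0.00193).

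The make-up of the family, by group medians, differed between untreated and treated mice of each genotype, given here without a test. The summed level of the 5 members had medians of 30.2, 119 and 30.1 TPM in untreated wild-type, p53-null and p21-null tumours and of 110, 571 and 256 in treated ones. Ifit2 made up a median of 33.9% of this sum in wild-type untreated mice and 15.5% in treated mice, 10.5% and 7.6% in p53-null mice, and 14.5% and 6.64% in p21-null mice. The ranges of this share overlapped in wild-type (24.5% to 43.7% untreated, 12.9% to 31.6% treated) and p53-null mice (6.86% to 13.8%, 6.46% to 8.15%). They did not overlap in p21-null mice (11.8% to 17.9%, 5.35% to 11.5%). Ifit2 was the highest member in 4 of 6 wild-type untreated mice, whereas Ifit3 was the highest in the other 2 and in every mouse of the other 5 groups. The order Ifit3, Ifit1, Ifit3b, Ifit2, Ifit1bl1 held in 5 of 5 p53-null treated mice and 7 of 9 p21-null treated mice. Ifit3 stood above Ifit1 within every mouse of all 6 groups, although their ranges over the mice of a group overlapped in each.

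Whether the response depended on genotype was tested as the difference of the changes. Differences from wild-type tumours also set different kits beside each other, so kit and genotype cannot be told apart in them. For 0 of 5 members did any of the 3 differences pass (limma, adjusted over all genes), beside 0.69%, 0.744% and 0.0804% of all genes for p21-null minus p53-null, p53-null minus wild-type and p21-null minus wild-type. At an unadjusted p under 0.05 the counts of members were 0, 0 and 1. That member was Ifit1bl1, whose response was 1.28 ± 0.37 log2 units larger in p21-null than in wild-type tumours (95% interval 0.52 to 2.05, limma adjusted p = 0.369). Ifit3 came next, with 0.86 ± 0.47 (-0.1 to 1.82, limma adjusted p = 0.569). Between p21-null and p53-null tumours, made with the same kit, the differences were 0.36 (95% interval -0.85 to 1.58) for Ifit1, -0.02 (-0.86 to 0.82) for Ifit2, 0.75 (-0.26 to 1.76) for Ifit3, 0.34 (-0.77 to 1.45) for Ifit3b and 0.59 (-0.22 to 1.4) for Ifit1bl1. The sign of the Ifit2 difference changed with the scaling, to 0.12 after median-of-ratios scaling. The intervals are wide enough to hold a difference of over 1 log2 unit for 4 of these 5 members, so they do not show that the genotypes responded alike. The median over all genes in this difference was -0.114, and -0.002 after median-of-ratios scaling.

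Before treatment, p53-null tumours held more Ifit3 than p21-null tumours. The medians were 54.68 and 11.48 TPM, and the difference was 1.74 ± 0.38 log2 units (limma adjusted p = 0.0117), with 4 of 4 p53-null mice above the p21-null mean. Ifit3 was 1 of 5 members called higher, beside 1.05% of all genes. At an unadjusted p under 0.05 (limma) the count was 5 of 5 members, beside 2392 of all 14928 genes. Of 32 other antiviral interferon-stimulated genes, 17 were under this unadjusted p and 2 were called higher. For Ifit3, m881, at 18.39 TPM, lay just under the highest p21-null mouse (18.91), and the other 3 p53-null mice held 50.99 TPM or more. The other members were higher on average by 1.34 ± 0.46 (Ifit1), 1.3 ± 0.42 (Ifit3b), 0.9 ± 0.32 (Ifit2) and 0.86 ± 0.3 (Ifit1bl1) and did not pass (limma adjusted p = 0.127, 0.0996, 0.138 and 0.138), although the groups did not overlap for Ifit1bl1. Without m881, Ifit1 (1.89, adjusted p = 0.0209) and Ifit3b (1.75, adjusted p = 0.0228) passed too. In a fit of the compared groups alone, Ifit3 did not pass (adjusted p = 0.0737). Among fibroblast marker genes, 1 of 8 was also called higher in untreated p53-null tumours, and among macrophage marker genes 0 of 12 (0 at an unadjusted p under 0.05). The part of cell composition in the difference was not tested.

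After treatment, Ifit2, Ifit3 and Ifit3b were higher in p53-null than in p21-null tumours. The differences were 0.92 ± 0.26, 0.99 ± 0.32 and 0.96 ± 0.35 log2 units (limma adjusted p = 0.0123, 0.022 and 0.0405), with 5 of 5 p53-null mice above the p21-null mean for each and overlapping groups. This is 3 of 5 members in a comparison where 20% of all genes were called higher and the median over all genes was 0.155 (0.016 after median-of-ratios scaling), so the share of members called is read against a high background. Ifit1 (0.98 ± 0.38, limma adjusted p = 0.0571) and Ifit1bl1 (0.27 ± 0.25, limma adjusted p = 0.454) did not pass. The count fell to 0 without m2688 and to 1 without m2771, which held the 2 highest Ifit3 levels of the p53-null treated mice. In the same comparison 6 of 12 macrophage marker genes were lower, and 4 of 8 fibroblast and 4 of 6 endothelial marker genes were higher, in p53-null tumours, beside 5.82% of all genes called lower and 20% called higher. Their part in the result was not tested.

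The spread within groups was largely shared by the members. Deviations from the group mean over 34 mice correlated between Ifit1, Ifit3 and Ifit3b with Pearson's r of 0.953 to 0.967, between Ifit2 and these with 0.702 to 0.762, and between Ifit1bl1 and the others with 0.421 to 0.696. The mice share no library, but the mice of a group share their group mean, and Ifit3 and Ifit3b share reads. m1127 deviated upwards for all 5 members in wild-type treated tumours, and m881 downwards for all 5 in p53-null untreated tumours. By the mean deviation of the members, the most alike of 12672 other genes over the 34 mice were Herc6 (r = 0.931), Trim34a (0.93), Gbp3 (0.918), Dhx58 (0.915) and Mx1 (0.912). Dhx58 encodes the cytosolic RNA helicase LGP2, Mx1 a GTPase against influenza virus and Gbp3 a guanylate-binding protein.

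**Figure D3:**
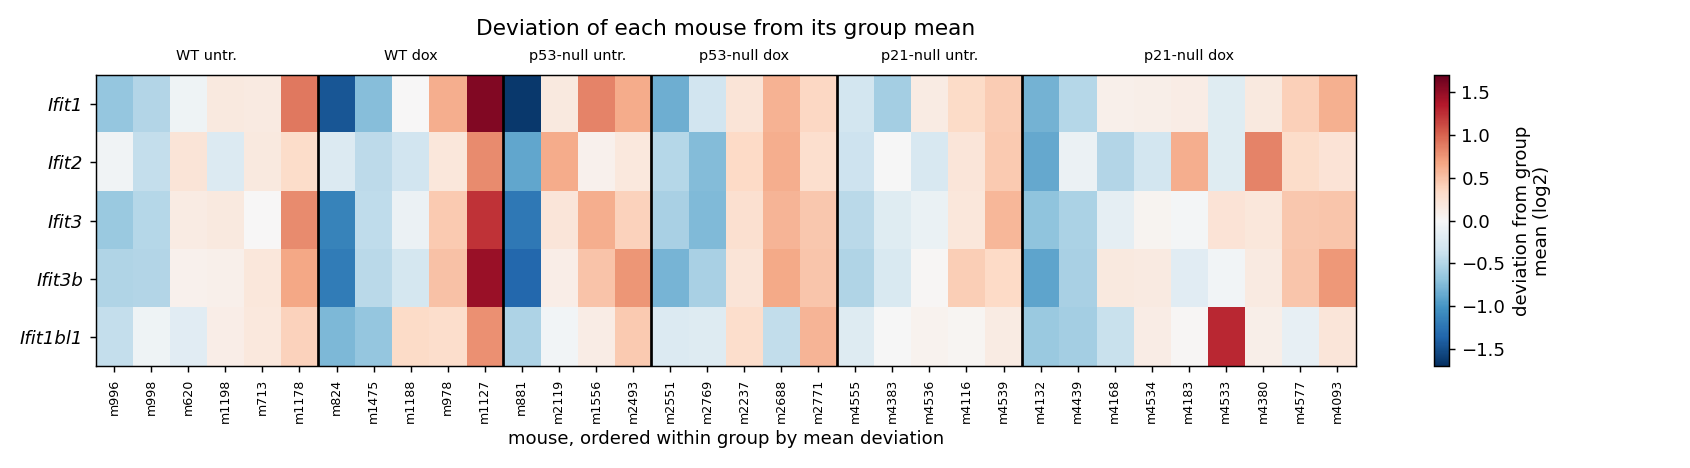
Deviation of each mouse from its group mean (log2 units, colour) for the 5 IFIT genes, with the 34 mice ordered within each of the 6 groups by their mean deviation. Columns mostly share 1 colour across Ifit1, Ifit3 and Ifit3b, with m1127 the darkest red in wild-type treated tumours and m881 the darkest blue in p53-null untreated tumours, while m4533 is red for Ifit1bl1 and pale for the other members.

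Tumours of 1 mouse could differ as much as mice did. In 5 of the 6 mice with 2 tumours, members differed by 0.09 to 1.09 log2 units between the tumours. The treated p53-null mouse m2551 was the exception, with differences of 1.54 (Ifit3b) to 2.47 (Ifit1bl1): Ifit1 stood at 43.15 TPM in one tumour and 141.66 in the other. The lower of these tumours was under the highest untreated p53-null tumour for all 5 members, and the other 5 treated p53-null tumours were above it. The summed level of the 12 macrophage marker genes was 1050 TPM in the lower tumour and 4130 in the other. That of the 8 T cell marker genes was 23.5 and 120 TPM. NK, fibroblast and red blood cell sums were also higher in the other tumour, and luminal and basal sums lower. In m1556 and m4439 the tumour with the higher IFIT sum also held the higher macrophage sum (1880 against 879 and 3550 against 1840 TPM). In m1475 and m2493 that tumour held the lower one (2840 against 4270 and 1080 against 1900). In m4116 these sums were 1480 and 1490 TPM. Such links were not tested. Without the lower tumour of m2551, all 5 members still passed in p53-null tumours, with changes of 2.06 (Ifit2) to 2.59 (Ifit1).

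Marker genes of other cells moved with treatment in some genotypes. Of 12 macrophage marker genes, 6 rose in wild-type and 7 in p21-null tumours, among them Cd68 (1.37 and 1.28 log2 units) and the complement gene C1qa (1.19 and 1.21), and 0 passed in p53-null tumours (limma; 1 at an unadjusted p under 0.05). Their summed level ranged from 1070 to 1680 TPM in untreated and 1770 to 3440 in treated wild-type mice. It ranged from 1100 to 2000 and 1730 to 4640 TPM in untreated and treated p21-null mice, and from 1270 to 1790 and 657 to 2990 in p53-null mice, and no marker was at 0 in every mouse of a group. The lowest of these sums, 657 TPM, belonged to the treated p53-null mouse m2769, in which the summed IFIT level was 321 TPM, above the highest untreated p53-null mouse (142). T cell marker genes rose in p21-null tumours for 3 of 8 and NK cell marker genes for 2 of 7 (7 and 6 at an unadjusted p under 0.05). In wild-type tumours 0 of 8 and 0 of 7 passed (1 and 1 unadjusted). In p53-null tumours 0 of 8 T cell genes (1 unadjusted) and 1 of 7 NK cell genes (4 unadjusted) passed. Neutrophil marker genes rose for 3 of 5 in p21-null tumours, S100a9 (2.71 ± 0.8 log2 units, limma adjusted p = 0.0293), Csf3r (0.89) and Cxcr2 (0.67), with 5 of 5 at an unadjusted p under 0.05. In wild-type tumours 1 of 5 rose, Csf3r (0.98), and in p53-null tumours 0 of 5 passed (0 unadjusted). The summed level of the 7 neutrophil genes ranged from 42.2 to 384 TPM in untreated and 162 to 5340 in treated p21-null mice, from 17.8 to 204 and 70.4 to 255 in wild-type mice, and from 17.5 to 206 and 32.8 to 1020 in p53-null mice. Of 6 conventional dendritic cell markers, 1 rose in wild-type and in p21-null tumours, Itgax (1.02 and 0.98), and 0 passed in p53-null tumours (0 unadjusted). Of 7 marker genes of plasmacytoid dendritic cells, which specialise in type I interferon, 1 rose in each genotype, Bst2, which is itself interferon-inducible. Siglech, a defining marker of those cells, was at 3.08 TPM or less in every mouse. Red blood cell genes fell for 4, 4 and 5 of 5 in wild-type, p53-null and p21-null tumours, where 1.33%, 0.456% and 4.03% of all genes were called lower. Luminal, basal, fibroblast and endothelial marker genes were called for 0 of 8, 0 of 7, 0 of 8 and 0 of 6 in each genotype (at most 2 of a list at an unadjusted p under 0.05). The part of these cells in the IFIT rise was not tested.

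The interferon ligands themselves were scarcely measured. Of 13 type I and III ligand genes, 2 reached the filter, Ifnk and Ifnz, and the others were not tested. Neither of these 2 passed in any genotype (changes of -0.14 to 0.09 log2 units, 0 at an unadjusted p under 0.05, limma). In untreated null mice all 13 together held at most 0.916 TPM, under the 1 added before the log. Changes at such levels are small on this scale, so these tests say little about the ligands in null tumours. Ifnb1, the type I ligand most cells can make, reached at most 0.63 TPM and was above 0 in 21 of 34 mice, and Ifna1 and Ifna5 were listed at 0 in all. Ifng, the type II ligand, reached at most 0.64 TPM and was above 0 in 28 of 34 mice. The summed level of the 13 type I and III ligand genes had medians of 0.224 TPM untreated (0.131 to 0.364) and 0.649 treated (0.329 to 1.12) in p21-null mice, and of 0.566 (0.188 to 0.916) and 1.18 (0.45 to 1.92) in p53-null mice. In wild-type mice it was 3.43 (2.43 to 4.59) and 4.01 (2.52 to 4.4). The Ifng medians were 0.0707 and 0.246 TPM in p21-null, 0.124 and 0.539 in p53-null and 0 and 0.1 in wild-type mice, untreated and treated. The medians were thus higher in treated mice of each genotype, while the ranges of treated and untreated mice overlapped in each case. Deposited TPM carry 2 decimals, and rescaling enlarged the wild-type values most. The wild-type Ifng medians of 0 and 0.1 therefore differ by about the size of this rounding. No test was run on these sums or on Ifng, which did not reach the filter. Of 6 receptor genes, Il10rb, a chain of the type III receptor, passed in wild-type tumours (0.52 ± 0.15, limma adjusted p = 0.031), and 0 passed in p53-null (0 at an unadjusted p under 0.05) and 0 in p21-null tumours (2 unadjusted).

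Downstream of the receptors, Stat2 and Irf9, which act together at the response element, rose in every genotype. Stat2 rose by 1.25 ± 0.23, 1.61 ± 0.25 and 1.41 ± 0.21 log2 units in wild-type, p53-null and p21-null tumours (limma adjusted p = 0.000526, 0.000474 and 1.35e-05), and Irf9 by 0.77 ± 0.19, 0.95 ± 0.21 and 0.8 ± 0.18 (limma adjusted p = 0.0142, 0.0136 and 0.00334). These are 2 of 5 signal transducer genes in each genotype, and the kinases Jak1, Jak2 and Tyk2 did not pass in any. Of 7 other IRF genes, 2, 2 and 4 rose. Irf7, which amplifies the production of type I interferon, rose most, by 1.97 ± 0.36, 2.11 ± 0.4 and 2.68 ± 0.33 (limma adjusted p = 0.000595, 0.00325 and 9.44e-07).

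Of 18 genes for nucleic acid sensors with their adaptors and kinases, 5, 9 and 9 rose in wild-type, p53-null and p21-null tumours. Besides cytosolic sensors these included the endosomal receptor Tlr3 and the kinase Tbk1 in p53-null tumours and the endosomal receptor Tlr7 in p21-null tumours. Cgas, a sensor of cytosolic DNA, and its adaptor Sting1 did not pass in any genotype (changes of -0.49 to 0.5 and of 0.02 to 0.27 log2 units). Zbp1, a sensor of left-handed nucleic acid, rose by 1.52 ± 0.29, 1.81 ± 0.32 and 2.18 ± 0.26 log2 units (limma adjusted p = 0.000846, 0.0017 and 6.32e-07), and Trex1, a DNA exonuclease, by 0.69 ± 0.15, 0.69 ± 0.17 and 1.05 ± 0.14 (limma adjusted p = 0.00452, 0.0253 and 3.31e-06). Of 7 feedback inhibitors, 1, 1 and 2 rose. Usp18, which damps the type I receptor, rose by 1.57 ± 0.42, 1.95 ± 0.47 and 2.27 ± 0.39 (limma adjusted p = 0.024, 0.0211 and 0.000139), and Socs1 in p21-null tumours by 0.94 ± 0.19 (limma adjusted p = 0.00151).

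Other antiviral interferon-stimulated genes rose with the family, 27 of 32 tested in each genotype, with median changes of 1.29, 1.49 and 1.74 log2 units in wild-type, p53-null and p21-null tumours. Mx1 rose by 1.59 ± 0.32, 2.14 ± 0.36 and 2.76 ± 0.3 (limma adjusted p = 0.00204, 0.00106 and 8.31e-08). Cxcl10, a chemokine that attracts T cells, rose by 1.29 ± 0.31, 1.74 ± 0.34 and 2.76 ± 0.28 (limma adjusted p = 0.00965, 0.00428 and 2.89e-08). Of 12 genes that lean towards interferon gamma, 3, 5 and 5 rose. Gbp2, a guanylate-binding protein, rose by 1.19 ± 0.27, 1.53 ± 0.3 and 1.88 ± 0.25 (limma adjusted p = 0.00679, 0.0045 and 3.14e-06), whereas the class II genes H2-Aa, H2-Ab1, H2-Eb1 and Cd74 did not pass in any genotype. Between p21-null and p53-null tumours, the difference of response passed for 0 of 32 antiviral and 0 of 12 interferon gamma leaning genes by limma (2 and 1 at an unadjusted p under 0.05).

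**Figure D4:**
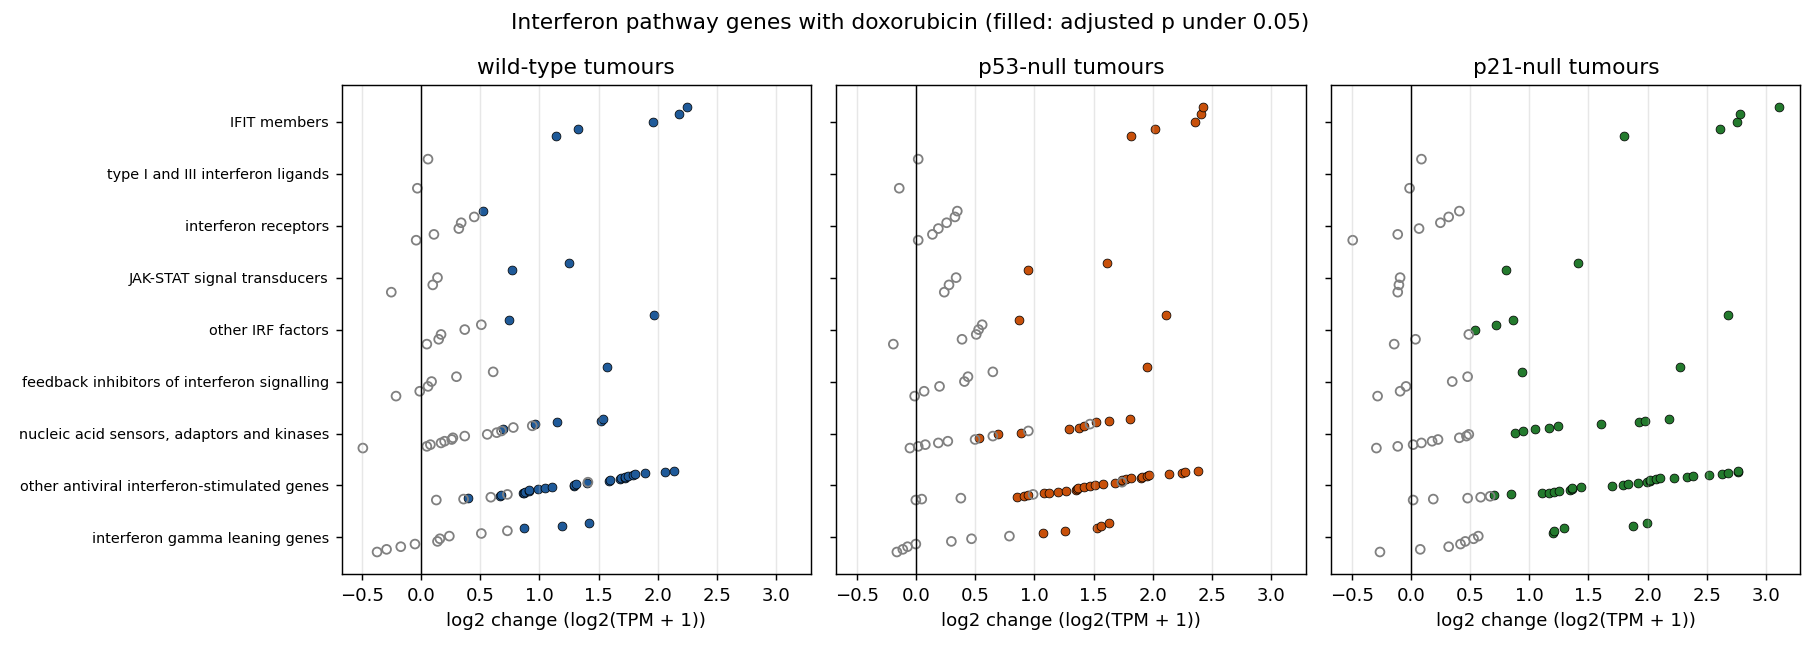
Change with doxorubicin (difference of log2(TPM + 1)) of each tested gene of the IFIT family and of 8 lists of interferon pathway genes, in wild-type, p53-null and p21-null tumours, with filled points for a limma adjusted p under 0.05 and open points for the rest. The IFIT genes lie at 1.14 to 3.11, and the JAK-STAT genes form 2 filled and 3 open points in each panel. The 2 type I and III ligands that reached the filter, of 13 listed, lie near 0, and the other ligands are not shown.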

How the data were processed

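Per the labels' protocols, RNA came from frozen, pulverised tumours by Trizol, and libraries of wild-type and null tumours were made with different TruSeq kits. The authors deposited 1 table of TPM per tumour. RSEM and build mm10 were used (no version is given in the sources used here), per the submitters' processing notes, with Ensembl release 79 models, per the file names. Each table summed to 999998.9 to 1000001.0 TPM, so depth is unknown and values have no counting interval. Identical tables were not found (0 pairs).

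Identifiers were matched to GENCODE M21 of the same build (42462 matched, 884 did not). TPM were rescaled to a total of 1000000 over 21461 nuclear protein-coding genes. Tumours that share a title number were taken as 1 mouse and averaged on the log2(TPM + 1) scale, and p-values measure the spread between mice. Genes at 1 TPM or more in at least 4 mice were kept (14928). The 6 group means were fitted together with limma 3.58.1 in R 4.3.3 (trended, robust moderation, 28 residual degrees of freedom), at a Benjamini-Hochberg adjusted p of 0.05 over these genes. The fit was first tested on simulated data. Exact permutation tests used scipy 1.17.1.

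The members, gene lists and tests were chosen with earlier results of these data known. Genes named are the members, Ifit1bl2, all expressed ligands, up to 3 genes per interferon list with the smallest adjusted p, the 5 genes most like the members, and Trp53, Cdkn1a and Wnt1; other genes named (Fas, Ch25h, Pank1, the class II genes, Cgas, Sting1, Tbk1, Tlr3, Tlr7, the markers) were chosen after their values were seen. Some genes of the interferon lists are not reported here and were left out of the lists and their counts. Wnt1 was at 41.43 TPM or more in every mouse. Alternatives changed the scale, pseudocount, filter, treatment of paired tumours, groups in the fit, moderation, handling of Ifit3 and Ifit3b, and left out each mouse in turn.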

Additional observations from a re-analysis of the deposited data

Results flagged for a closer look

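Of 30 groups of values checked (5 members in 6 groups), 1 held a mouse far from the others, and chance alone gives about 1 in 20. Ifit1bl1 stood at 26.16 TPM in the p21-null treated mouse m4533, where the other 8 mice held 6.23 to 11.93. On the log2(TPM + 1) scale, the gap to the next mouse was 0.561 of the range of the group, above Dixon's critical value of 0.493 for 9 mice. In the same mouse Ifit1 (61.39 TPM), Ifit2 (15.64) and Ifit3b (29.33) were under their group medians and Ifit3 (136.29) above its own.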

How the results depend on the processing

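No paired analysis was possible because the groups share no replicate numbers. The number of members that passed was 5 in each genotype. With the TPM as deposited it was 1 in wild-type tumours (Ifit3), 1 for the difference of response p53-null minus wild-type, 2 for p21-null minus wild-type and 2 for untreated p53-null minus p21-null tumours. With only the compared groups in the fit it was 0 in p53-null tumours and 0 for the untreated difference, which came to 3 with all 40 tumours as separate samples. Leaving out each mouse in turn gave 4 to 5 members in wild-type, 5 in each null genotype, 1 to 3 for the untreated difference (3 without m881) and 0 to 4 for the treated difference (0 without m2688, 1 without m2771). The other alternatives left these counts within 1.5 times.

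Signs that changed belonged to differences of response that never passed. For Ifit2, p21-null minus p53-null went from -0.02 to 0.12 with median-of-ratios scaling, 0.05 with a pseudocount of 0.25, 0.06 with 40 tumours and -0.23 to 0.27 leaving out mice. For p53-null minus wild-type, Ifit1 went from 0.24 to -0.02 and Ifit3 from 0.11 to -0.08 with 40 tumours. Leaving out mice gave -0.3 to 0.63 for Ifit1 and -0.3 to 0.42 for Ifit3. The causes were not tested.

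Counts over all genes moved more. With the deposited TPM, 180 genes passed in wild-type tumours against 756. In p53-null tumours 242 passed, 1 with only the compared groups, 365 without the lower tumour of m2551 (chosen after seeing the data) and 108 to 356 leaving out mice. In p21-null tumours 1347 passed, and 794 to 1678 leaving out mice. The untreated difference moved from 264 to 67 (compared groups only) and 491 (deposited TPM), and the treated one from 3860 to 1587 (compared groups only).
The difference of response p21-null minus p53-null moved from 103 to 162 with median-of-ratios scaling and to 175 without m2551, p53-null minus wild-type from 111 to 60 (deposited TPM), and p21-null minus wild-type from 12 to between 0 and 65.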
